A study of Arabidopsis thaliana with 18 samples.

Results

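The 10 genes described here encode core proteins of small RNA production and action in Arabidopsis thaliana: the Dicers DCL1, DCL2, DCL3 and DCL4, the Argonautes AGO1, AGO2 and AGO4, and the microRNA processing factors HYL1, SE and HEN1. They were taken by gene identifier from a table of 33557 genes, and all 10 were found. The genes were picked with differences between these same libraries already known, so their values are a description: no p-value is given for them, and nothing is read from how many of them limma called. Whole seedlings of wild-type Col-0 (WT) and of the mutant stch4-1 were 14 days old and had spent 4 h at 4 °C, with 3 libraries per genotype. Of 18 labelled samples in 6 groups, these 6 were used; the 12 from 0 h and from 24 h of cold are not analysed here. STCH4 is another name of REIL2, a cytosolic factor whose yeast relative Rei1 helps to finish large ribosomal subunits, and the study concerns its part in cold tolerance. The labels give neither the lesion of the stch4-1 allele nor a complemented line, so the mutant stands here as 1 line.

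In plants, DCL1 cuts microRNAs out of folded primary transcripts, helped by the double-stranded RNA binding protein HYL1 and the zinc-finger protein SE, and HEN1 then methylates their 3′ ends. The other Dicers make small interfering RNAs: DCL2 and DCL4 in defence against viruses and in secondary silencing, DCL3 in the pathway that directs DNA methylation. Argonautes bind these small RNAs and act on matching RNA or chromatin, AGO1 as the main effector of microRNAs, AGO2 in antiviral silencing and AGO4 in RNA-directed DNA methylation. Several of the genes are themselves targets of microRNAs, which forms feedback loops on the machinery.

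After cold, seedlings of stch4-1 had less transcript of the microRNA-producing Dicer DCL1 and of its partner SE than WT, while the other 8 genes differed by less. That ranking holds before the trend of fold changes with transcript length, given below, is removed. With that trend removed, the log2 fold change was -0.31 for DCL1, -0.33 for SE and 0.31 for DCL3. The standard errors were then 0.069, 0.052 and 0.0998. FPKM ranges of the genotypes overlapped for DCL3 and not for DCL1 or SE, and DCL3 moved by 0.11 before the removal. DCL1 stood at 6.89 ± 0.161 FPKM (SD, n = 3) in WT and 4.38 ± 0.154 FPKM (SD, n = 3) in stch4-1. SE stood at 19.2 ± 0.459 FPKM in WT and 14.4 ± 0.560 FPKM in stch4-1 (SD, n = 3 each). FPKM scales fragment counts by transcript length and library size, so levels can be set beside each other between genes. AGO1 was the most abundant of the 10 in both genotypes and DCL3 the least.

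Some facts of the whole table bear on these values. REIL2 (AT2G24500, chromosome 2), the mutated gene, read 31.2 to 35.97 FPKM in WT and 5.44 to 5.80 FPKM in stch4-1, in the direction of the labels. Relative depth, estimated from the commonest FPKM ratio between libraries in low genes, was 1 to 1.443 in WT and 1.015 to 1.229 in stch4-1. Of 19289 genes tested with limma on log2(FPKM + 1), 18.5% were called higher and 14.0% lower in stch4-1 at a Benjamini-Hochberg adjusted p under 0.05, 32.6% in all. Fold changes fell with transcript length, from a median log2 value of 0.18 in the shortest to -0.15 in the longest of 10 length bins. Markers of roots moved with genotype: 7 of 10 tested root markers were called lower and 0 higher (0 also at an unadjusted limma p under 0.05), with a summed level of 1759 to 1787 FPKM in WT and 1525 to 1564 FPKM in stch4-1. The lowest fold changes among these were those of PRP3 (-0.70), MRN1 (-0.69) and PRP1 (-0.55), and the root stem cell genes WOX5 and PLT1 stayed under the filter at 0.600 and 0.998 FPKM in WT. The 3 not called were EXPA18 (0.21), EXPA7 (0.03) and COBL9 (-0.11). Most of the summed level came from PYK10, at 1560 ± 13.8 FPKM in WT and 1380 ± 20.5 FPKM in stch4-1. Of leaf markers 1 of 7 was called higher and 1 lower, and of meristem and dividing cell markers 0 of 4 in either direction (1 lower at an unadjusted limma p under 0.05), with CLV3 listed at 0. Flower markers summed to 1.63 to 2.28 FPKM in WT and 2.59 to 3.71 FPKM in stch4-1. Seed markers summed to 0.651 to 0.866 FPKM in WT and 0.206 to 0.259 FPKM in stch4-1. Neither pair of ranges overlapped, but the levels were low, and only 1 flower marker and 0 seed markers passed the filter. The part of root or any other organ in the differences below was not tested. In whole seedlings, fewer cells of a type and less RNA per cell cannot be told apart.

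DCL1 (AT1G01040, chromosome 1, 6279 bases of exon in 20 exons) was lower in every stch4-1 library. It read 6.71, 6.99 and 6.98 FPKM in WT libraries a, b and c and 4.55, 4.25 and 4.35 FPKM in stch4-1 libraries a, b and c. The genotypes did not overlap, and the libraries of each lay close together. The FPKM mean in stch4-1 differed from that of WT by -36.4%, and the log2 fold change on the log2(FPKM + 1) scale was -0.55 with a standard error of 0.066. At the length of DCL1 the trend over all genes stood at -0.25, and once that trend was removed its log2 fold change was -0.31. Among the 1914 tested genes in the longest of the 10 length bins, 2.04% had a lower log2 fold change than DCL1. DCL1 overlaps 3 annotated genes: the microRNA gene MIR838 on the same strand, which was listed at 0 in all 6 libraries; PPa1 on the other strand, over 58 bases, at 122.9 ± 3.003 FPKM in WT and 118.8 ± 4.10 FPKM in stch4-1; and the antisense noncoding gene AT1G03993, over 788 bases, not analysed here. These overlaps are of whole gene spans, introns included, and the exon bases shared were not measured. Whether reads were counted by strand is not stated, so antisense reads cannot be told apart from DCL1 reads.

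DCL1 is a known target of miR162, which its own activity produces. The sequences show how the microRNA and its site in the DCL1 transcript pair, 5′ to 3′, from RefSeq for TAIR10.1, with bases 2 to 8 of the microRNA (the seed) and the site bases that face them in capitals.
miR162a-3p: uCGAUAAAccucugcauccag
DCL1 site: cuggaugcagaggUaUUAUCGa
The site lies in the coding region and spans 1 exon junction of the DCL1 transcript. All 21 bases of miR162a-3p pair with it, with 1 extra base on the side of the transcript that interrupts the capitals. Windows with at most 4 unpaired bases were found in transcripts of 14 of 27444 genes, or 0.051%, so such a match is rare, but it is a description of letters and not a measure of cleavage. The precursor gene MIR162a (AT5G08185, 140 bases of exon), on chromosome 5, read 12.7, 12.5 and 11.1 FPKM in WT and 14.1, 15.5 and 13.2 FPKM in stch4-1. Its ranges did not overlap, and its log2 fold change of 0.22 did not pass (limma adjusted p = 0.056). With the length trend removed, MIR162a stood at -0.18 (limma adjusted p = 0.124), so its sign depends on how short transcripts are treated. Mature microRNAs were not measured by these libraries.

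SE (AT2G27100, chromosome 2, 2654 bases), a scaffold of the processing complex, was the other gene with a clear gap. It read 19.0, 19.8 and 18.9 FPKM in WT and 14.6, 13.8 and 14.9 FPKM in stch4-1. Every stch4-1 library lay below every WT library. The FPKM mean differed by -24.9%, with a log2 fold change of -0.39 (standard error 0.050). The trend over all genes was weaker at the length of SE than at that of DCL1: it stood at -0.06, and -0.33 was left once it was removed.

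HYL1 (AT1G09700, chromosome 1, 1806 bases), the double-stranded RNA binding partner of DCL1, varied more within each genotype than between them. It read 4.05, 6.77 and 6.13 FPKM in WT and 4.46, 7.25 and 7.29 FPKM in stch4-1. Library a was the lowest of each genotype and the ranges overlapped. Its coefficient of variation was 25.2% in WT and 25.6% in stch4-1, above that of 96.3% and 97.1% of the 3748 tested genes of like level, within 1.5-fold, whose medians were 7.54% and 7.81%. The log2 fold change of HYL1 was 0.14 (standard error 0.205) and ran from -0.05 to 0.34 when 1 library was left out, so neither a rise nor a fall can be read from it. The gene span of HYL1 overlaps that of AT1G09690 on the same strand by 36 bases. AT1G09690 stood at 375 ± 27.3 FPKM in WT and 378 ± 30.7 FPKM in stch4-1. The part of this overlap in the spread of HYL1 was not tested.

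HEN1 (AT4G20910, chromosome 4, 3471 bases), the methyltransferase that protects small RNA ends, was level between genotypes. It read 4.86, 4.84 and 4.92 FPKM in WT and 5.06, 4.82 and 5.13 FPKM in stch4-1, ranges that overlapped. Its log2 fold change was 0.03, and 0.15 once the length trend was removed.

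**Figure D1:**
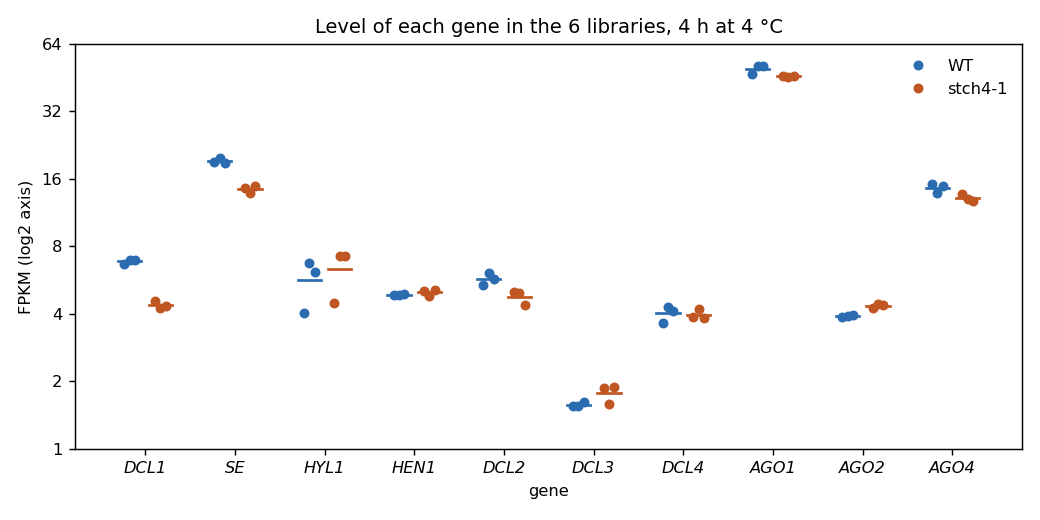
Level of each of the 10 genes (FPKM, log axis) in the 3 WT and 3 stch4-1 libraries, with 1 point per library and bars for the group means. DCL1 and SE have the widest gap between genotypes, and the HYL1 points spread within each genotype.

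Before removal of the length trend, the other Dicers differed by less than DCL1. With the trend removed, the log2 fold change of DCL3 was about as large in the other direction (0.31 against -0.31). The FPKM ranges of DCL3 overlapped, however, and its standard error was larger (0.0998 against 0.069). DCL2 (AT3G03300, chromosome 3, 5338 bases) read 5.39, 6.11 and 5.72 FPKM in WT and 5.03, 4.93 and 4.37 FPKM in stch4-1. All stch4-1 values of DCL2 lay below the WT values, by a log2 fold change of -0.22 (standard error 0.081), which is close to the -0.21 of the trend at its length, so that -0.01 was left. The gene span of DCL2, introns included, overlaps that of AT3G03305 on the same strand by 847 bases. AT3G03305 went from 8.25 ± 0.373 to 9.17 ± 0.338 FPKM (log2 fold change 0.14, limma adjusted p = 0.129). How many exon bases the genes share was not measured. How reads over any such bases were divided is not stated, so the DCL2 level is uncertain.

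DCL3 (AT3G43920, chromosome 3, 5044 bases), which makes the small RNAs of the DNA methylation pathway, was the lowest of the 10. It read 1.55, 1.55 and 1.61 FPKM in WT and 1.87, 1.59 and 1.89 FPKM in stch4-1, with ranges that overlapped. Its log2 fold change was 0.11, against a trend of -0.20 at its length, and 0.31 with the trend removed. DCL4 (AT5G20320, chromosome 5, 5738 bases), the Dicer of trans-acting small RNAs, read 3.65, 4.28 and 4.12 FPKM in WT and 3.88, 4.19 and 3.84 FPKM in stch4-1. The DCL4 ranges overlapped, its log2 fold change was -0.01, and 0.21 was left once the trend of -0.23 was removed.

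The balance among the Dicers therefore differed between the genotypes. DCL1 made up 38.8%, 36.9% and 37.9% of the summed Dicer FPKM in WT and 29.7%, 28.4% and 30.1% in stch4-1. In WT, DCL1 had the largest share of the 4 in every library. In stch4-1, DCL2 took 32.8%, 33.0% and 30.2%, and was above DCL1 in every library. The share of DCL4 went from 22.02 ± 0.813% to 26.6 ± 1.37% and that of DCL3 from 8.63 ± 0.412% to 11.97 ± 1.26% (SD, n = 3 each). The sum of all 4 Dicers was 18.2 ± 0.840 FPKM in WT and 14.9 ± 0.450 FPKM in stch4-1. These shares depend on the DCL1 level itself, and on how the authors' counting divided any bases that genes share.

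**Figure D2:**
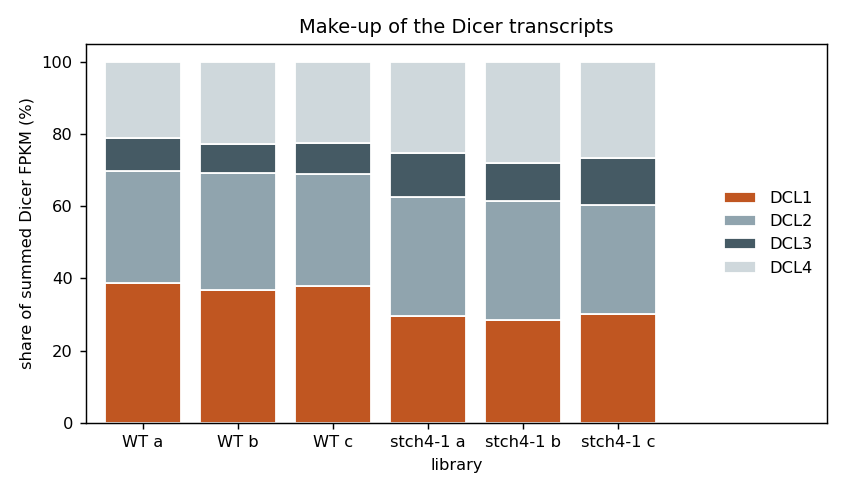
Share of DCL1, DCL2, DCL3 and DCL4 in the summed Dicer FPKM of each library (percent), for WT and stch4-1 libraries a, b and c. The DCL1 share is 36.9% to 38.8% in WT and 28.4% to 30.1% in stch4-1.

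Against its partners, DCL1 was lower in stch4-1 by ratios that follow from the levels above. SE over DCL1 was 2.79 ± 0.0725 in WT and 3.30 ± 0.121 in stch4-1. Both genes were lower in stch4-1, DCL1 by more (-36.4%) than SE (-24.9%). AGO1 over DCL1 went from 7.21 ± 0.159 to 10.5 ± 0.342. HYL1 over DCL1 read 0.604, 0.969 and 0.879 in WT and 0.980, 1.71 and 1.68 in stch4-1, so the highest WT ratio and the lowest stch4-1 ratio, that of library a, almost met.

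Of the Argonautes, AGO1 (AT1G48410, chromosome 1, 3640 bases) read 47.1, 51.2 and 50.8 FPKM in WT and 45.9, 45.6 and 46.2 FPKM in stch4-1. The stch4-1 values lay below the WT values and much closer together. Its log2 fold change was -0.11, the trend at its length -0.13 and the remainder 0.01. AGO1 is a known target of miR168, whose site shows how AGO1 is tied to the pathway it serves. The sequences are again from RefSeq for TAIR10.1, 5′ to 3′, with bases 2 to 8 of the microRNA and the bases that face them in capitals.
miR168a-5p: uCGCUUGGugcaggucgggaa
AGO1 site: uucccgagcugcaUCAAGCUa
The site is in the coding region, with 18 paired bases, 1 G:U pair and 2 other mismatches. Windows as close as 4 unpaired bases were found in 10 of 27444 genes (0.0364%).

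AGO2 (AT1G31280, chromosome 1, 3602 bases), the antiviral Argonaute, was the one gene of the 10 whose stch4-1 libraries all lay above the WT libraries. It read 3.86, 3.91 and 3.95 FPKM in WT and 4.25, 4.43 and 4.38 FPKM in stch4-1. The log2 fold change was small, 0.13, and with the length trend of -0.12 removed it was 0.25. AGO2 is a known target of miR403, whose site lies in the 3′ UTR of AGO2 rather than in the coding region; the capitals mark bases 2 to 8 of the microRNA and the bases that face them.
miR403-3p: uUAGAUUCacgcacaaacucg
AGO2 site: ggaguuugugcguGAAUCUAa
Of the 21 bases, 20 pair, and 15 of 27444 genes (0.0547%) had a window with at most 4 unpaired bases. AGO3, the neighbour and close relative of AGO2, was among those 15 genes.

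AGO4 (AT2G27040, chromosome 2, 3255 bases), which loads small RNAs of the DNA methylation pathway, read 15.2, 13.9 and 14.8 FPKM in WT and 13.6, 13.1 and 12.8 FPKM in stch4-1. The AGO4 libraries of stch4-1 lay just below those of WT, at a log2 fold change of -0.14, and -0.04 once the trend of -0.10 was removed. Within the 3 Argonautes the balance moved little. AGO1 took 72.8 ± 1.52% of their summed FPKM in WT and 72.4 ± 0.492% in stch4-1, AGO2 5.73 ± 0.0965% and 6.87 ± 0.185%, and AGO4 21.5 ± 1.43% and 20.8 ± 0.613% (SD, n = 3 each).

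As a group, 5 of the 10 genes were lower in every stch4-1 library than in any WT library (DCL1, DCL2, AGO1, AGO4 and SE), 1 was higher in this way (AGO2) and 4 overlapped. Over all tested genes, 22.7% were lower and 25.1% higher without overlap, 47.8% in all. Limma called 2 of the 10 lower (DCL1 and SE) and 0 higher (0 also at an unadjusted p), beside 14.0% and 18.5% of all genes; these counts, under every setting, rest on the comparison the genes were picked with. Their median log2 fold change was -0.06, against 0.01 over all tested genes. All 10 have longer transcripts than the median tested gene, which has 1758 bases. With the length trend removed their median was 0.07, with 2 called lower and AGO2 called higher, beside 12.1% and 14.2% of all genes. Under quantile normalization 3 were called lower and 0 higher, beside 16.1% and 13.6% of all genes. Of the 10, 4 lay below the trend for their length and 6 above it.

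**Figure D3:**
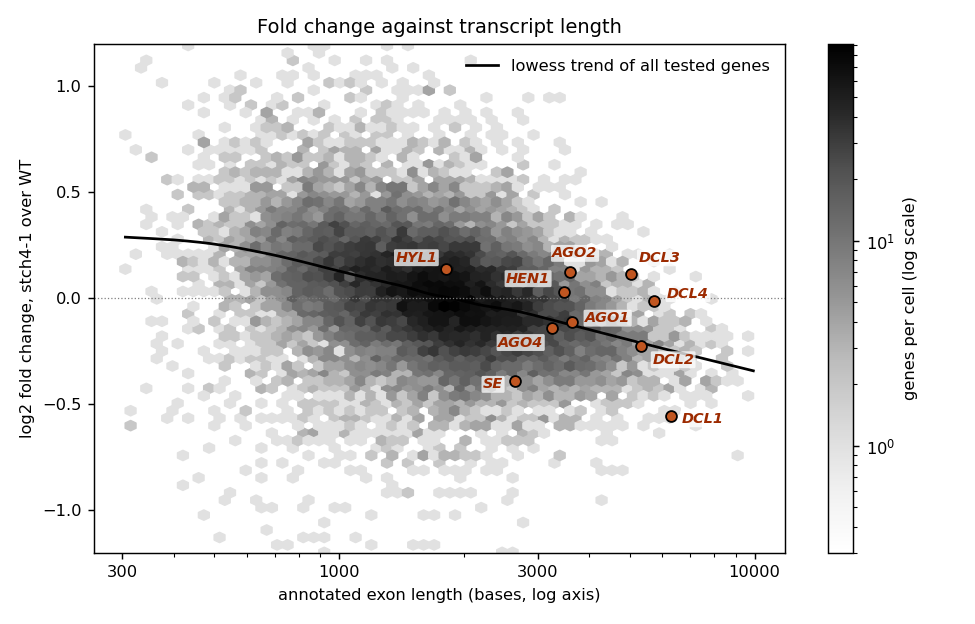
Log2 fold change (stch4-1 minus WT, log2(FPKM + 1) scale) against exon length (bases, log axis) for 19030 tested genes, shaded by their number per cell, with the lowess trend as a line and the 10 genes as named points; 123 tested genes lie outside the axes. DCL1 and SE lie below the line and DCL3, HEN1, DCL4 and AGO2 above it.

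In order of level, the WT libraries ran AGO1, SE, AGO4, DCL1, DCL2, HYL1, HEN1, DCL4, AGO2 and DCL3, from 49.7 to 1.57 FPKM. The ranges of neighbours overlapped between DCL2 and HYL1, between HYL1 and HEN1 and between DCL4 and AGO2. In stch4-1 AGO1, SE and AGO4 again came first, DCL4 and DCL3 last, and between them HYL1, HEN1, DCL2, DCL1 and AGO2 formed a run in which each range overlapped the next, from 6.33 to 4.35 FPKM. DCL1 thus stood clear of its neighbours in WT and not in stch4-1.

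The 3 tested genes whose log2(FPKM + 1) followed DCL1 most closely over the 6 libraries were ABCI20 (AT5G02270), a non-intrinsic ABC protein (Pearson r = 0.9999), MLP34 (AT1G70850), an MLP-like protein (r = 0.9985), and AFH1 (AT3G25500), a formin that nucleates actin (r = 0.9984). ABCI20 went from 131 ± 2.30 to 90.9 ± 2.32 FPKM. With 6 libraries in 2 genotypes such values mostly restate a gap between genotypes, and 114 genes reached an r of at least 0.99.

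Around the 10 genes, the rest of the pathway was followed in lists drawn up from the known roles of genes. These lists, the targets below and the markers above were chosen with earlier results of these data known. Their counts and p-values are therefore a description and not an independent test. Of 66 tested genes in 6 lists, limma called 7 higher and 15 lower, with a median log2 fold change of -0.09. All tested genes gave 18.5% higher and 14.0% lower with a median of 0.01, the shares beside which the count of each list below stands, and the listed genes had a median exon length of 2804 bases against 1758. With the length trend removed, 5 were called higher and 7 lower, with a median of -0.04, beside 14.2% and 12.1% of all genes. The count of higher genes was 1 to 4, and that of lower genes 11 to 12, when any 1 library was left out. Over all tested genes the calls also fell with 1 library fewer, from 3576 to between 2628 and 3260 higher and from 2704 to between 1826 and 2273 lower. Both counts of the lists thus fell with the length trend removed and with fewer libraries.

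**Figure D4:**
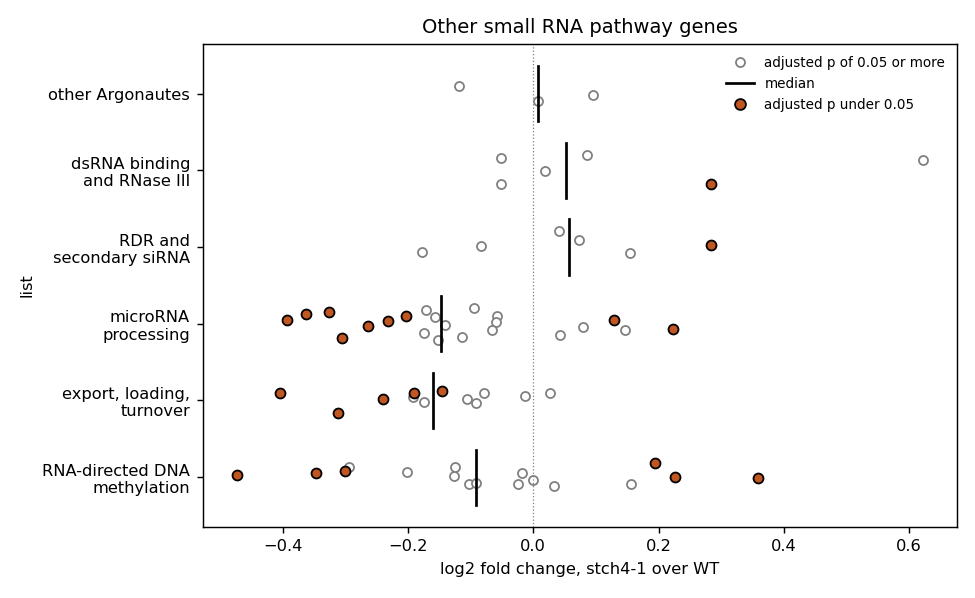
Log2 fold change (stch4-1 minus WT) of each tested gene in 6 further lists of the small RNA pathway, with called genes filled and list medians as bars. Processing cofactors (median -0.15) and export, loading and turnover factors (median -0.16) lie lowest, and the other Argonautes centre on 0.01.

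Of the 3 other Argonautes tested, limma called 0 in either direction, and 0 had an unadjusted p under 0.05. AGO10, which sequesters miR165 and miR166 in meristems, stood at 9.40 ± 0.194 FPKM in WT and 8.58 ± 0.342 FPKM in stch4-1 (log2 fold change -0.12, limma adjusted p = 0.150). AGO7, the partner of miR390, stood at 2.98 ± 0.229 and 2.995 ± 0.0629 FPKM, and AGO6, of the DNA methylation pathway, at 0.947 ± 0.0979 and 1.085 ± 0.219 FPKM. AGO3 was under the filter at 0.482 and 0.499 FPKM, and AGO5 and AGO9 at no more than 0.0352 and 0.122 FPKM in any library.

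Among other double-stranded RNA binding and RNase III proteins, 1 of 6 tested was called higher and 0 lower (0 also at an unadjusted limma p under 0.05). DRB3, a double-stranded RNA binding protein with a role in antiviral defence, read 5.56, 6.51 and 6.31 FPKM in WT and 7.85, 7.14 and 8.01 FPKM in stch4-1. The ranges did not overlap, and the log2 fold change was 0.28 (limma adjusted p = 0.027). The DRB3 call was lost when library a or c of either genotype was left out (limma adjusted p from 0.0573 to 0.0836). DRB2 (19.3 and 19.6 FPKM), DRB4, the partner of DCL4 (10.1 and 9.68 FPKM), DRB5 (7.06 and 6.77 FPKM) and RTL2 (2.78 and 3.03 FPKM) did not pass. RTL1, an RNase III-like protein that suppresses small interfering RNAs, read 0.224, 1.52 and 1.02 FPKM in WT and 1.60, 1.77 and 2.15 FPKM in stch4-1, ranges apart, and did not pass (log2 fold change 0.62, limma adjusted p = 0.089). RTL3 was under the filter at 0.202 and 0.135 FPKM.

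RNA-dependent RNA polymerases copy RNA into the double strands that Dicers cut. RDR1, the salicylate-responsive member, read 3.07, 3.18 and 3.06 FPKM in WT and 4.32, 3.83 and 3.85 FPKM in stch4-1. Its ranges did not overlap, and it was called higher (log2 fold change 0.28, limma adjusted p = 0.029), the 1 call among 6 genes, but not when any 1 library was left out (limma adjusted p from 0.0502 to 0.0981). With the length trend removed RDR1 stood at 0.43 (limma adjusted p = 0.00677). RDR2 (1.71 and 1.80 FPKM), RDR6 (4.15 and 3.86 FPKM), its partner SGS3 (5.28 and 4.56 FPKM, limma adjusted p = 0.110), the helicase SDE3 (3.24 and 3.47 FPKM) and SDE5 (5.49 and 6.22 FPKM) did not pass.

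Cofactors of microRNA processing had 7 of 22 tested genes called lower and 2 higher, with a median of -0.15. BRM, the ATPase of a chromatin remodelling complex, fell from 10.8 ± 0.173 to 7.97 ± 0.249 FPKM (log2 fold change -0.39, limma adjusted p = 0.0016). STA1, a splicing factor, fell from 14.2 ± 0.204 to 10.8 ± 0.825 FPKM (-0.36, limma adjusted p = 0.0041), and NOT2A, a CCR4-NOT family protein that binds DCL1, from 12.6 ± 0.557 to 9.85 ± 0.549 FPKM (-0.33, limma adjusted p = 0.0061). With the length trend removed BRM (-0.11, limma adjusted p = 0.190) and STA1 (-0.19, limma adjusted p = 0.0531) were not called, and 3 genes of the list were called lower and 0 higher (0 also at an unadjusted limma p under 0.05). The pair called higher had small differences: the Mediator subunit MED18 went from 9.47 ± 0.248 to 11.2 ± 0.849 FPKM (limma adjusted p = 0.035) and the RNA-binding protein GRP7 from 609 ± 15.2 to 666 ± 27.2 FPKM (limma adjusted p = 0.046). MED18 lost its call when any library but stch4-1 c was left out (limma adjusted p from 0.0529 to 0.0988), nor with the length trend removed (limma adjusted p = 0.354). GRP7 lost its call when any library but stch4-1 b was left out (limma adjusted p from 0.0506 to 0.148), nor under quantile normalization (limma adjusted p = 0.58) or with the length trend removed (limma adjusted p = 0.66).

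Of 12 factors of microRNA export, loading and turnover, 5 were called lower and 0 higher (0 also at an unadjusted limma p under 0.05), with a median of -0.16, beside 14.0% and 18.5% of all genes. When any 1 library was left out, 3 were called lower. AMP1, a membrane protein needed for microRNAs to repress translation, fell from 15.35 ± 0.704 to 11.4 ± 0.493 FPKM (log2 fold change -0.40, limma adjusted p = 0.0017). EMA1, an importin-like protein that limits loading of AGO1, fell from 20.9 ± 0.718 to 16.7 ± 0.206 FPKM (-0.31, limma adjusted p = 0.002), and TRN1, a transportin that favours it, from 27.6 ± 0.530 to 23.2 ± 1.40 FPKM (-0.24, limma adjusted p = 0.010). AMP1 and EMA1 were also called with the length trend removed, and TRN1 was not (limma adjusted p = 0.135). That setting called 2 of the 12 lower and 1 higher, the exportin XPO1A, named after its value was seen (25.1 ± 1.29 and 25.5 ± 0.764 FPKM; log2 fold change 0.03, and 0.17 with the trend removed, limma adjusted p = 0.0464).

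The list for RNA-directed DNA methylation, the pathway in which DCL3 and AGO4 work, had 3 of 17 tested genes called in each direction, with a median of -0.09. This list also held MET1 and CMT3, which maintain DNA methylation and are not themselves factors of that pathway. MET1, which maintains CG methylation, fell from 6.79 ± 0.0704 to 4.62 ± 0.0938 FPKM (log2 fold change -0.47, limma adjusted p = 0.0012), and it was called under all 14 alternatives. KTF1, an adaptor that binds AGO4, fell from 4.575 ± 0.335 to 3.38 ± 0.0817 FPKM (-0.35, limma adjusted p = 0.013; length removed, adjusted p = 0.170), and CMT3, which methylates CHG sites, from 7.85 ± 0.335 to 6.19 ± 0.319 FPKM (-0.30, limma adjusted p = 0.012). The polymerase subunits NRPD4 (0.36, limma adjusted p = 0.049) and NRPE5 (0.19, limma adjusted p = 0.014) and the methyltransferase DRM2 (0.23, limma adjusted p = 0.037) were called higher. Those higher calls were not firm. NRPD4 lost its call when WT a or c, or stch4-1 a or b, was left out (limma adjusted p from 0.0568 to 0.139), NRPE5 without stch4-1 b (limma adjusted p = 0.0513), and DRM2 when any 1 library was left out (limma adjusted p from 0.0591 to 0.1). With the length trend removed NRPD4 stood at 0.18 (limma adjusted p = 0.29) and NRPE5 at 0.13 (limma adjusted p = 0.0731), neither called. DRM2 stayed called there (0.26, limma adjusted p = 0.0246). DMS3, named after its value was seen, was also called higher (0.31, limma adjusted p = 0.0313). That setting called 2 of the 17 higher and 2 lower, beside 14.2% and 12.1% of all genes.

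The microRNA genes themselves were hardly visible in this table. Of 326 in the reference, 178 had a row and 176 of those were listed at 0 in all 6 libraries, among them MIR168a, MIR403 and MIR838. An exact 0 in such a table can be a failed estimate, and the 7 matched precursors of trans-acting small RNAs, the products of DCL4, were also listed at 0. MIR863 (AT4G13494) read 0.720, 0.502 and 1.17 FPKM in WT and was listed at 0 in the 3 stch4-1 libraries; it was under the filter and not tested.

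Known targets of microRNAs and of trans-acting small RNAs were followed as the output of the pathway. Of 82 listed, 71 were tested, with 10 called higher and 17 lower and a median of -0.07, beside 18.5% higher and 14.0% lower of all tested genes. The lower count was 9 without stch4-1 a, and with the length trend removed 12 were called higher and 11 lower, beside 14.2% and 12.1% of all genes. Called targets were found in both directions under each of these settings.

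NF-YA10 and NF-YA2, subunits of a CCAAT-binding complex and targets of miR169, were among the 3 called furthest up. NF-YA10 read 12.1, 14.6 and 13.6 FPKM in WT and 20.8, 21.99 and 23.1 FPKM in stch4-1 (log2 fold change 0.68, limma adjusted p = 0.00053). NF-YA2 rose from 27.2 ± 0.905 to 41.0 ± 1.57 FPKM (0.57, limma adjusted p = 0.00014). Of 7 tested miR169 targets 3 were called higher, the last being NF-YA5 (5.31 and 8.12 FPKM, limma adjusted p = 0.0039), named after its value was seen. SPL4, a miR156 target that promotes flowering, rose from 6.74 ± 1.87 to 10.6 ± 1.02 FPKM (0.61, limma adjusted p = 0.022), and this call was lost when WT a or c, or stch4-1 b or c, was left out (limma adjusted p from 0.0567 to 0.0667).

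LAC4, a laccase of lignin formation and a target of miR397, read 6.38, 7.04 and 6.40 FPKM in WT and 3.08, 3.61 and 3.34 FPKM in stch4-1 (log2 fold change -0.81, limma adjusted p = 0.00035). NAC100, a miR164 target, fell from 6.15 ± 0.301 to 4.26 ± 0.847 FPKM (-0.46, limma adjusted p = 0.021), a call lost when WT a or c, or stch4-1 a or b, was left out (limma adjusted p from 0.0502 to 0.0623). TOE3, an AP2-like repressor of flowering under miR172, fell from 8.64 ± 0.882 to 6.35 ± 0.406 FPKM (-0.39, limma adjusted p = 0.011). Of 6 tested miR172 targets 4 were called lower, the other 3 being AP2 (limma adjusted p = 0.0037), TOE1 (limma adjusted p = 0.015) and TOE2 (limma adjusted p = 0.017), named after their values were seen. With 1 library left out, the limma adjusted p reached 0.0558 for TOE1 and 0.0614 for TOE2. With the length trend removed TOE1 (limma adjusted p = 0.0921) and TOE2 (limma adjusted p = 0.083) were not called. That setting called 3 of the 6 lower, among them SMZ (limma adjusted p = 0.0338), also named after its value was seen. Families were small, the members of a family share sequence, and 21 families were tested, so no family is set apart from the others by these counts.

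**Figure D5:**
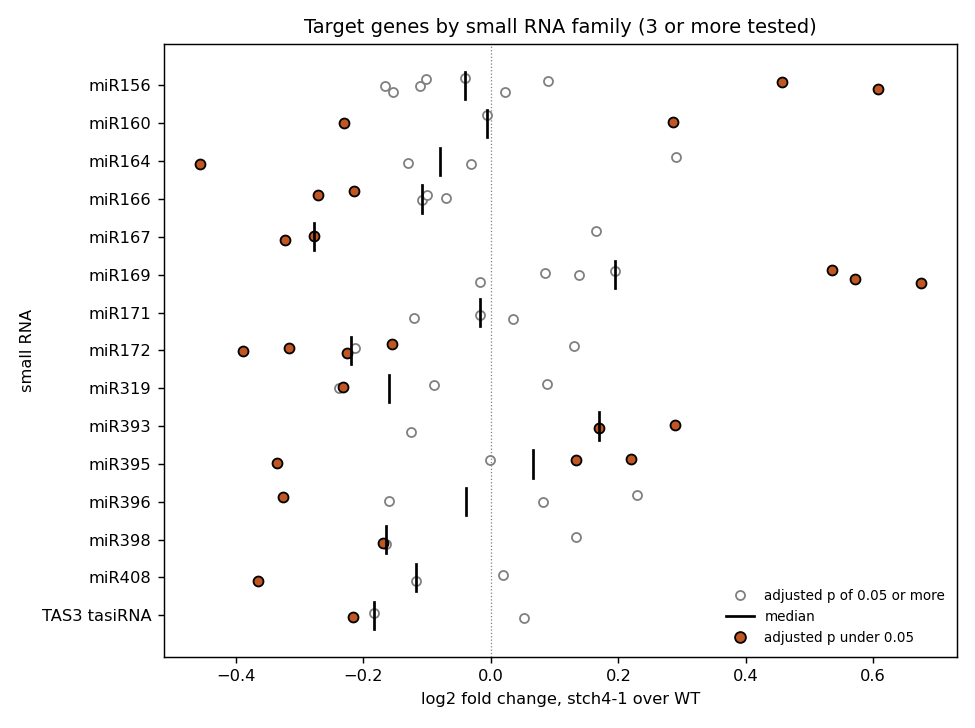
Log2 fold change (stch4-1 minus WT) of each tested target in families with at least 3 tested genes, grouped by the microRNA or trans-acting small RNA that targets them, with called genes filled and family medians as bars. Members of miR169 lie mostly above 0 and those of miR172 mostly below it, and most families hold genes on both sides.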

How the data were processed

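The authors deposited FPKM per gene and library. TopHat2, Cufflinks and TAIR10 are named in the submitters' processing notes; versions, strand setting and the treatment of shared reads are not stated. Column names give genotype and time but count libraries from 0 and titles from 1, so libraries are called a, b and c in table order. FPKM holds no counts, so no counting interval is given. Relative depth came from the commonest ratio between WT a and each library, in genes above 0 and under 0.6 FPKM in both.

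Genes at 1 FPKM or more in at least 3 of 6 libraries were tested. Limma 3.58.1 (R 4.3.3) was run on log2(FPKM + 1) with trended eBayes moderation, 2-sided, adjusted by Benjamini-Hochberg over all 19289 genes; that scale understates changes of low genes. No label says that libraries are separate cultures, so the spread behind p-values may be technical. The length trend was a lowess curve (span 0.3) of each library's deviations on exon length. On simulated data 55% of log2 changes of 0.5 and 92% of changes of 1 were recovered (200 of 19289 genes changed), with 6.96% of calls false.

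Symbols, lengths and sequences came from RefSeq for TAIR10.1, which held 32810 identifiers; no coordinates are given, since the table rests on TAIR10. Sites are the best match of a microRNA in the transcript, allowing 1 extra target base. Of the listed genes, 9 whose symbol or identifier could not be matched were left out.

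The 10 genes and all lists were chosen with earlier results of these data known. Besides the 10 genes and REIL2, the text names every other Argonaute, double-stranded RNA binding or RNase III protein and RNA-dependent RNA polymerase listed, the 3 called genes furthest each way in other lists, and the 3 genes most correlated with DCL1, the largest difference. Alternatives were a pseudocount of 0.1, no filter, a mean of at least 5 FPKM, quantile normalization, upper quartile scaling, removal of the length trend, eBayes without its trend, leaving out each library and, chosen after seeing the data, a block on the number in the column name.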

Additional observations from a re-analysis of the deposited data

How the results depend on the processing

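Removal of the length trend moved DCL1 to -0.31, SE to -0.33, DCL2 to -0.013, DCL3 to 0.31, DCL4 to 0.21, AGO1 to 0.014, AGO2 to 0.25, AGO4 to -0.041 and HEN1 to 0.15 (log2 fold change), with 1 of the 10 genes called higher, 7 pathway genes called lower and 11 targets called lower. Under upper quartile scaling DCL1 was -0.59, AGO2 0.089 and HEN1 -0.0067, 5 of the 10 genes were called lower and 3 pathway genes higher. A pseudocount of 0.1 gave DCL1 -0.64 and AGO2 0.15. Quantile normalization gave AGO1 -0.18 and AGO2 0.15. Without a filter 3 pathway genes were called higher. Upper quartiles of the tested genes were 31.2 to 31.6 FPKM in WT and 32.4 to 32.5 FPKM in stch4-1. Upper quartile scaling therefore lowered stch4-1 values relative to WT. What lies behind that offset or behind the length trend was not tested. Leaving out 1 library at a time left 1 to 4 pathway genes called higher, 9 to 16 targets called lower and 2 to 3 of the 10 genes called lower. The split of all calls, 3576 higher and 2704 lower, was 2614 and 3108 under quantile normalization and 2833 and 3623 under upper quartile scaling. DCL3, DCL4, AGO2 and HEN1 had no value at a mean of at least 5 FPKM, which they do not reach. Columns of both genotypes carry numbers from 0 to 2, which titles do not use. Across genes, deviations of same-numbered libraries correlated at 0.0534, -0.135 and -0.0361, and no WT library correlated best with its own number, so the numbers were not taken to pair the samples. A replicate block on that number, added after seeing the data, gave 3017 genes higher and 2063 lower, 2 pathway genes higher and 12 lower, and 7 targets higher and 15 lower. FPKM without counts, 3 libraries per genotype and low levels limit what can be seen of DCL3 and of the genes near the filter.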
